A study of Mus musculus with 2 samples.

Results

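Glucocorticoids are steroid hormones that act through a receptor which, once bound by its ligand, moves into the nucleus and raises or lowers the transcription of its target genes. The genes described here are 8 genes known from many tissues for their response to these hormones, and they were taken by name as Fkbp5, Tsc22d3, Sgk1, Zbtb16, Nr3c1, Errfi1, Klf9 and Pdk4. They are 8 of the 32285 genes counted in a single-cell RNA sequencing study of the light-damaged mouse retina. Their spliced plus ambiguous and their unspliced transcripts were followed in both libraries, in rods split by their share of unspliced RNA and in cone-like, RPE-like (retinal pigment epithelium) and Mueller-like droplets.

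The study compared the retinae of mice exposed to damaging light with those of dark-adapted mice that received no such light. All mice carried floxed Tgfbr2 alleles and are described by the study as functional wild types. They were of a mixed Balb-C/CD1 background, homozygous for the leucine variant of RPE65, of both sexes and 6 to 9 weeks old. Both groups spent 18 h in darkness, and the light damage group then received 5000 lux for 30 min and recovered for 6 h in dim light. Each group is 1 library made from the pooled retinae of 3 to 5 mice, passed over magnetic beads that remove dead cells. Mice can therefore not be told apart, and no test across animals was possible. Light exposure began early in the morning. The hour at which control retinae were taken is not given in the sources used here, which bears on genes that follow the daily rhythm of corticosterone or the circadian clock.

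Without its ligand, the glucocorticoid receptor is held in the cytoplasm by a chaperone complex that contains HSP90. The immunophilin encoded by Fkbp5 lowers the affinity of this complex for hormone, which closes a feedback loop. Among the other targets, Tsc22d3 encodes GILZ, a mediator of anti-inflammatory effects, Sgk1 encodes a kinase that regulates ion channels and transporters, and Klf9 and Zbtb16 (PLZF) encode transcription factors. Errfi1 (MIG6) encodes an inhibitor of the EGF receptor, and Pdk4 encodes a kinase that restrains pyruvate dehydrogenase. Several of these genes also respond to other stimuli, such as osmotic stress for Sgk1, growth factors for Errfi1 and fasting for Pdk4.

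The receptor binds DNA as a dimer at a palindrome of hexamers, and the promoter windows of the members were searched for it to show what sequence the results on Sgk1 and Tsc22d3 stand beside. RefSeq windows on GRCm38.p6, each running from 250 bases before to 50 bases after a transcription start, were found for 6 of the 8 genes (14 windows). The palindrome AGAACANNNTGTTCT, which reads the same on both strands, occurred in 3 of all 32851 windows (0.00913%), and 1 of these 3 belongs to Sgk1. The hexamer AGAACA on either strand (TGTTCT where it lies on the other strand) occurred in 6233 of all windows (19.0%) and in 4 of the 14 member windows (28.6%). These 4 belong to Sgk1 and Tsc22d3, and each palindrome holds a pair of hexamers. In the Sgk1 window at chr10:21993640-21993939 (plus strand) the palindrome runs from 189 to 175 bases before the start. Of the 3 Tsc22d3 windows only that at chrX:140600473-140600772 (minus strand) held a hexamer. Both of these windows are printed 5′ to 3′ along the gene, with the hexamers in capitals.
Sgk1: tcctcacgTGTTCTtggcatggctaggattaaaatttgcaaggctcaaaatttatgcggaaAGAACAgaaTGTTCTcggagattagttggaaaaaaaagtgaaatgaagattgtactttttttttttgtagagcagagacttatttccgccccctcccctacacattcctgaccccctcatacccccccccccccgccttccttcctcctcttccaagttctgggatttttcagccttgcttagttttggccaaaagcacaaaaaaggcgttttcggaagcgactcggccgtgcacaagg
Tsc22d3: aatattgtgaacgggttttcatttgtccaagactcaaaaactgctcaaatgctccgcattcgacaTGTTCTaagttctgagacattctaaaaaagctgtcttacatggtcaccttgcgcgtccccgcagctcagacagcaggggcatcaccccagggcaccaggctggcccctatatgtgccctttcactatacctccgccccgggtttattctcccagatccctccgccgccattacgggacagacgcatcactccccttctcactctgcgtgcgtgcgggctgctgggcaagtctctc
A match to these letters describes the window and is not evidence of receptor binding in these cells.

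The control library held 30605284 UMIs (unique molecular identifiers, each standing for 1 captured transcript) and the light damage library 54413601, from which 3669 and 5593 droplets were kept. Droplets were named by the UMIs of marker genes. Rods with at least 25% unspliced UMIs are called nucleus-rich because unspliced RNA resides mainly in the nucleus, whereas rods below this share are called cytoplasm-rich. Control and light damage held 2470 and 1923 cytoplasm-rich rods, 816 and 3183 nucleus-rich rods, 156 and 90 cone-like, 150 and 287 RPE-like, and 33 and 35 Mueller-like droplets. Only 4.75% of control and 1.21% of light damage rods lay within 20 to 30% unspliced UMIs. Median UMIs per droplet were 2707.5 and 3115 in cytoplasm-rich rods, but 3710 and 6142 in nucleus-rich rods, 2746 and 14481.5 in cone-like, 2718.5 and 6451 in RPE-like and 2815 and 20316 in Mueller-like droplets.

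In rods, RPE-like and Mueller-like droplets the summed markers of the named type led those of the other types apart from rod RNA. As droplets were named by these same markers, this does not test the labels. Cone-like droplets went against their label in part: their summed rod markers reached 94900 CPM (UMIs per 1000000 UMIs of a class) in control and 50440 after light damage, against 10936 and 13797 for cone markers. Only 3 of 156 control droplets but 64 of 90 light damage droplets held under 5% rod marker UMIs. Values of cone-like droplets are therefore values of droplets that also carry rod RNA, in unequal amounts. Mueller-like droplets held vessel markers at 1051 and 1240 CPM and microglia markers at 9.55 and 14 CPM. RPE-like droplets held some of the Mueller markers, summed at 1693 and 1936 CPM. Aqp4 and Kcnj10, which define Mueller glia, were at 0 there in both libraries, and the RPE marker Best1 was at 0 in control. Free RNA, measured in barcodes under 50 UMIs, made up an estimated 7.98% and 4.29% of the RNA of RPE-like droplets and 15.6% and 9.80% of Mueller-like droplets by their rod markers. By RPE markers it made up 0.764% to 2.56% of rods. Most nucleus-rich rods of the control (453 and 209 droplets) lay in other clusters than most of those after light damage (1532, 1157 and 232 droplets). This class was thus not made of the same kinds of droplets in both libraries. The libraries shared 7 of the kept barcodes.

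A level is given below as the CPM of spliced plus ambiguous UMIs, scaled to all such UMIs of a class in 1 library, with a 95% interval that covers counting error alone. A ratio is the log2 of light damage CPM over control CPM, for genes with at least 20 UMIs over both libraries. A gene was called higher or lower where it differed at least 2-fold and its counting interval lay on that side of 0, which describes these libraries and does not measure the spread between mice. Of the 6 members tested in nucleus-rich rods, 2 were called higher, Errfi1 and Tsc22d3, where 7.14% of all tested genes were called higher. In RPE-like droplets 1 of 6, Sgk1, was called lower, where 5.44% of all tested genes were, and in Mueller-like droplets 1 of 3, again Sgk1, was called higher, where 17% were. None of the 6 members tested in cytoplasm-rich rods was called higher (background 4.52%) or lower (1.33%), and the same held for the 6 tested in cone-like droplets (13.8% and 3.07%). The background for the opposite directions was 4.06% lower in nucleus-rich rods, 9.8% higher in RPE-like and 13.1% lower in Mueller-like droplets, with no member called. The median ratio of the members tested was 0.73 in nucleus-rich rods beside 0.06 over all tested genes, and 0.18 beside 0.16 in cytoplasm-rich rods. It was 0.05 beside 0.22 in cone-like, -0.49 beside 0.01 in RPE-like and 0.19 beside 0.05 in Mueller-like droplets.

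**Figure D1:**
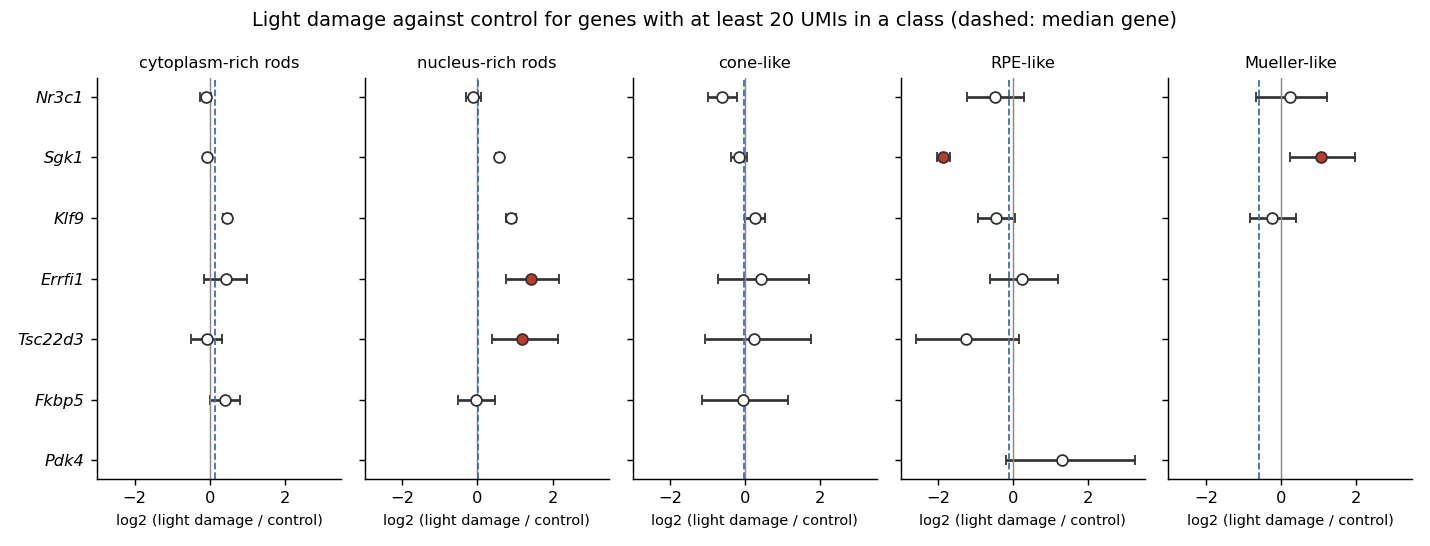
Each panel is a droplet class, and each point is the log2 ratio of light damage over control with its 95% counting interval. Genes with under 20 UMIs in a class are left out there. Filled points were called: Errfi1 and Tsc22d3 lie to the right in nucleus-rich rods, while Sgk1 lies at -1.86 in RPE-like droplets and at 1.05 in Mueller-like droplets. The dashed line is the median of genes with at least 50 UMIs in both libraries.

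This median gene itself was shifted by 0.16 in cytoplasm-rich rods, -0.11 in RPE-like and -0.58 in Mueller-like droplets, and by 0.02 and -0.04 in nucleus-rich rods and cone-like droplets. Ratios relative to it are given beside some values below, and differences between classes are not set against it. In Mueller-like droplets the ratios relative to it were 1.63 for Sgk1, 0.81 for Nr3c1 and 0.35 for Klf9. Without it they were 1.05, 0.23 and -0.23, so Klf9 changed sign.

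The receptor gene Nr3c1 (ENSMUSG00000024431, chr18:39410545-39519421, minus strand) was detected in all 5 classes of both libraries. In rods its level was 103 CPM in control and 95.8 after light damage when cytoplasm-rich, and 141 and 131 when nucleus-rich. In cone-like droplets it was 159 and 104 CPM, in Mueller-like 124 and 146, and in RPE-like only 32.5 and 23.1. The RPE-like class had the lowest level of the 5 classes in both libraries, below the other 4 beyond the counting intervals. The order of the other classes in control was cone-like, nucleus-rich rods, Mueller-like and cytoplasm-rich rods, with overlapping intervals between neighbours. Of the 5 classes as a whole, cone-like droplets had a ratio of spliced plus ambiguous UMIs below 0 beyond counting error, at -0.61 (-1.01 to -0.21). This was short of the 2-fold limit and in the class whose rod RNA differed between libraries. In that class 1 droplet of each library held 14 of 92 control and 27 of 131 light damage UMIs. Its unspliced Nr3c1 ratio was 0.19 (-0.29 to 0.69). With every droplet thinned to 1000 UMIs, 8.33% of control and 10% of light damage droplets held an Nr3c1 UMI. Relative to the median gene the Nr3c1 ratio was also below 0 in cytoplasm-rich rods, at -0.26 (-0.41 to -0.11). Within rods it was below 0 at 50 to 60% unspliced UMIs (-0.49, -0.88 to -0.08) and at 70 to 85% (-1.11, -1.74 to -0.50). With rods of 20 to 30% left out, nucleus-rich rods had -0.24 (-0.44 to -0.04).

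Unspliced Nr3c1 was the larger share of its RNA in nuclei: 71.0% of its UMIs in control and 66.3% in light damage nucleus-rich rods. There its unspliced UMIs numbered 628 in control and 2896 after light damage. Scaled, as all unspliced values here unless stated, to the spliced plus ambiguous UMIs of the class, their ratio was -0.42 (-0.54 to -0.29). Scaled to the unspliced UMIs of the class, a choice made after seeing the data, it was -0.24 (-0.36 to -0.11), beside -0.11 (-0.30 to 0.09) for spliced plus ambiguous UMIs.

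Of 16 further genes of receptor function, namely the mineralocorticoid receptor Nr3c2, the corticosterone-converting enzymes Hsd11b1 and Hsd11b2, chaperones and coregulators, 14 could be tested in either kind of rod and none was called. Their median ratio was 0.30 in cytoplasm-rich rods beside 0.16 over all tested genes, and 0.26 beside 0.06 in nucleus-rich rods. Hsd11b2, whose enzyme inactivates corticosterone, was detected with 1 UMI in light damage cone-like droplets and with none in the other classes compared. Nr3c2 was at 4.89 and 6.01 CPM in cytoplasm-rich and at 15.3 and 23.5 CPM in nucleus-rich rods. In RPE-like droplets 2 of 12 tested genes were called higher, the coactivators Ncoa1 (69.5 to 189 CPM, ratio 1.44) and Ncoa2 (4.44 to 19.3 CPM from 3 and 45 UMIs, ratio 2.12, 0.48 to 4.45). In cone-like droplets 2 of 14 were called higher, the chaperone Hsp90ab1 (ratio 1.11) and the coactivator Ncoa3 (1.81). In Mueller-like droplets 1 of 13 was, the cochaperone Fkbp4 (3 UMIs against 42, ratio 2.04, 0.39 to 4.37). The background of genes called higher was 9.8% in RPE-like, 13.8% in cone-like and 17% in Mueller-like droplets. In rods it was 4.52% when cytoplasm-rich and 7.14% when nucleus-rich, and 1.33% and 4.06% for genes called lower.

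Sgk1 (ENSMUSG00000019970, chr10:21882184-21999903, plus strand) had opposite differences between the libraries in different classes. In RPE-like droplets its level was 767 CPM (703 to 836) in control and 212 CPM (193 to 231) after light damage, 3.63-fold lower. The ratio of -1.86 (-2.04 to -1.68) became -1.75 when set against the median gene. In nucleus-rich rods it was 744 CPM (705 to 785) in control and 1101 CPM (1081 to 1120) after light damage, a ratio of 0.56 (0.48 to 0.65) that did not reach 2-fold. In cytoplasm-rich rods the levels of 417 and 399.9 CPM differed by less than their counting intervals, at -0.06 (-0.13 to 0.01), or -0.22 (-0.29 to -0.14) relative to the median gene.

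In Mueller-like droplets Sgk1 was at 134 CPM (73.1 to 224) in control and 277 CPM (225 to 337) after light damage, which rests on 14 and 99 UMIs. The ratio of 1.05 (0.24 to 1.97) is just past the 2-fold limit. It was 0.68 (-0.18 to 1.63) in droplets that held no UMI of the vessel markers Cldn5, Pecam1, Rgs5 and Kcnj8, and 0.51 (-0.02 to 1.06) where classes were taken from clusters. Cone-like droplets had 497 and 441 CPM, a ratio of -0.17 (-0.38 to 0.04). In cone-like droplets of 2000 to 5000 UMIs it was -1.43 (-2.54 to -0.49) and was called lower.

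**Figure D2:**
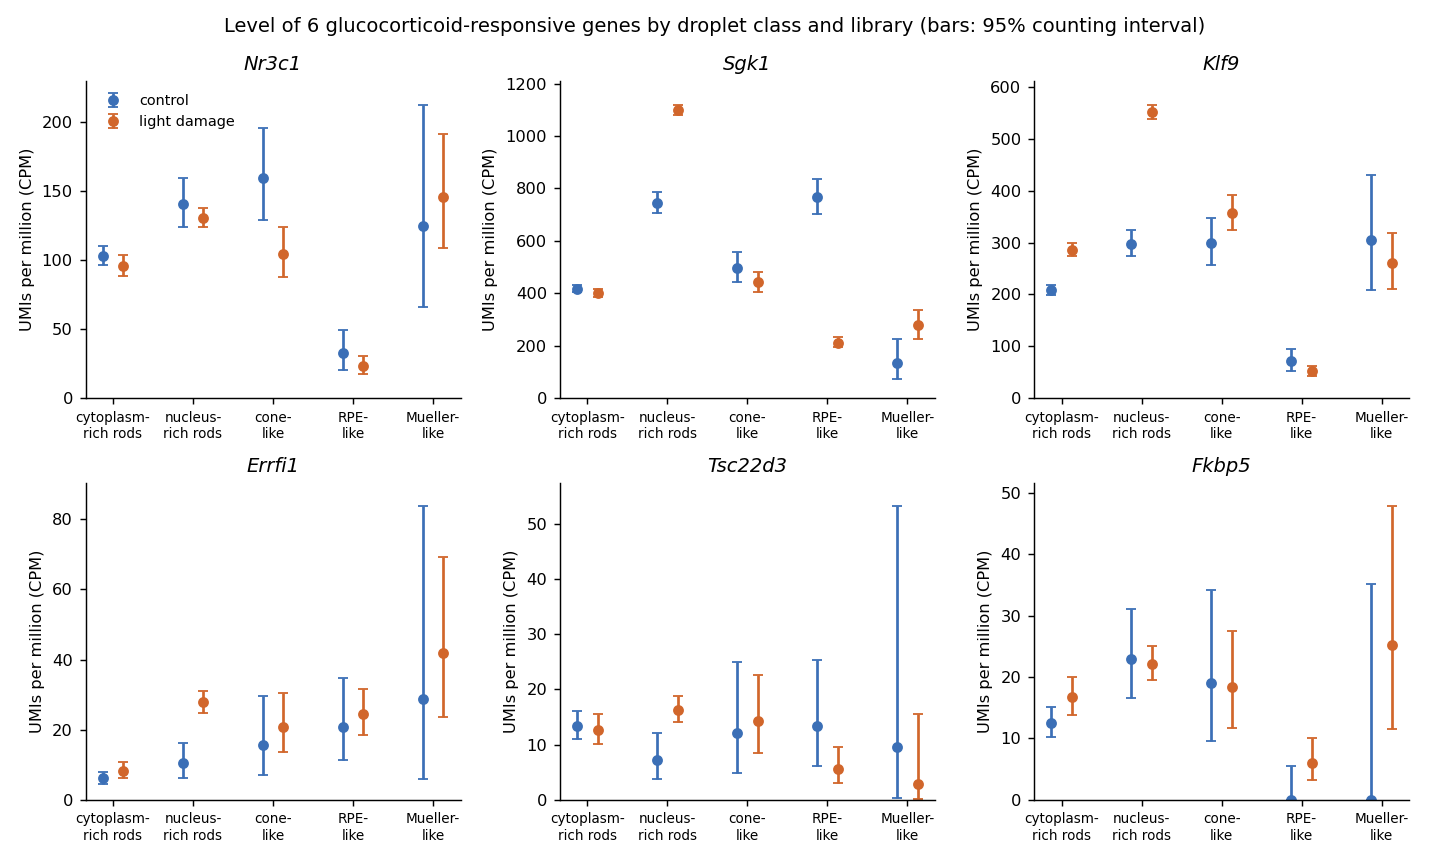
Points are the CPM of the gene in each droplet class (blue, control, orange, light damage) and bars are 95% counting intervals, on linear axes that start at 0. For Sgk1 the 2 libraries stand close together in cytoplasm-rich rods (417 and 399.9 CPM), apart upwards in nucleus-rich rods and apart downwards in RPE-like droplets. RPE-like droplets are lowest for Nr3c1 and Klf9.

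In control the Sgk1 levels of RPE-like droplets and nucleus-rich rods were the highest of the 5 classes and did not differ beyond counting error, and Mueller-like droplets were the lowest. After light damage RPE-like droplets were the lowest of the 5 and Mueller-like droplets next above them, with intervals (193 to 231 and 225 to 337) that overlap slightly. The share of RPE-like droplets with an Sgk1 UMI was 71.3% in control and 57.1% after light damage, although the latter were deeper. With every droplet thinned to 1000 UMIs, which left out no RPE-like droplet, it was 46.7% (38.5% to 55.0%) and 19.9% (15.4% to 25%). For comparison, an Sgk1 UMI was held by 1 of 17 control bipolar- and amacrine-like droplets (5.88%, 0.149% to 28.7%). After light damage it was 2 of 17 (11.8%, 1.46% to 36.4%). Median UMIs of these droplets were 3799 and 19428. Free RNA carried Sgk1 at 459 CPM in control and 757 CPM after light damage, opposite in order to RPE-like droplets. With the expected free RNA subtracted the ratio in RPE-like droplets was -2.08 (-2.27 to -1.89). In RPE-like droplets with under 1% rod marker UMIs it was -1.94, and without the droplet that held most Sgk1 UMIs in each library -1.78.

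Klf9 (ENSMUSG00000033863, chr19:23141226-23168134, plus strand) was higher after light damage in both kinds of rod beyond counting error, without reaching 2-fold in either. Nucleus-rich rods had 298 CPM (274 to 324) in control and 553 CPM (539 to 567) after light damage, a ratio of 0.89 (0.76 to 1.02). Cytoplasm-rich rods had 208 CPM (198 to 218) and 286 CPM (274 to 299), a ratio of 0.46 (0.37 to 0.56), or 0.31 (0.21 to 0.40) relative to the median gene. In droplets thinned to 1000 UMIs the share with a Klf9 UMI was 18.3% and 35.8% in nucleus-rich rods (199 control and 402 light damage droplets were too shallow) and 14.5% and 22.1% in cytoplasm-rich rods. Unthinned, the shares were 28.7% and 56.2% in nucleus-rich and 30.8% and 45.6% in cytoplasm-rich rods.

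In the other 3 of the 5 classes the counting intervals of the Klf9 ratio included 0. Cone-like droplets had 299.7 and 357 CPM (ratio 0.25, -0.00 to 0.51, or -1.08, -2.47 to 0.07, at 2000 to 5000 UMIs), RPE-like 71.0 and 51.8 CPM (-0.45, -0.95 to 0.06) and Mueller-like 306 and 260.4 CPM (-0.23, -0.82 to 0.40). RPE-like droplets had the lowest Klf9 level of the 5 classes in both libraries, beyond the counting intervals of the other 4.

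The 25% limit joins rods of very different unspliced share, and splitting them further placed the largest differences in Sgk1 and Klf9 between 25 and 50% unspliced UMIs. Below 25% unspliced UMIs, Sgk1 levels of the libraries differed by less than counting error in each of 3 ranges (ratios 0.01, -0.06 and -0.12). Klf9 was higher after light damage at 0 to 5% (0.44, 0.31 to 0.57) and at 5 to 10% (0.68, 0.49 to 0.88) but not beyond counting error at 10 to 25% (0.17). In rods with 25 to 40% unspliced UMIs Sgk1 was at 596 CPM in control and 1167 CPM after light damage, a ratio of 0.97 (0.81 to 1.14). Klf9 was at 273 and 641 CPM, a ratio of 1.23 (0.99 to 1.48). Both ratios exceeded those of nucleus-rich rods as a whole. At 40 to 50% the ratios were 0.63 (0.46 to 0.81) for Sgk1 and 1.09 (0.80 to 1.39) for Klf9. At 50 to 60% they were 0.33 (0.16 to 0.50) and 0.67 (0.40 to 0.96).

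At 60 to 70% unspliced UMIs the order of the libraries turned for Sgk1, which was at 966 CPM in control and 768 CPM after light damage (-0.33, -0.51 to -0.15). Klf9 no longer differed beyond counting error (0.23, -0.08 to 0.55). At 70 to 85% neither gene did (-0.21 and -0.17). Over these ranges the control level of Klf9 stayed between 273 and 316 CPM above 10% unspliced UMIs. The light damage level went from 330.0 CPM at 10 to 25% up to 656 CPM at 40 to 50% and back to 274 CPM at 70 to 85%.

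**Figure D3:**
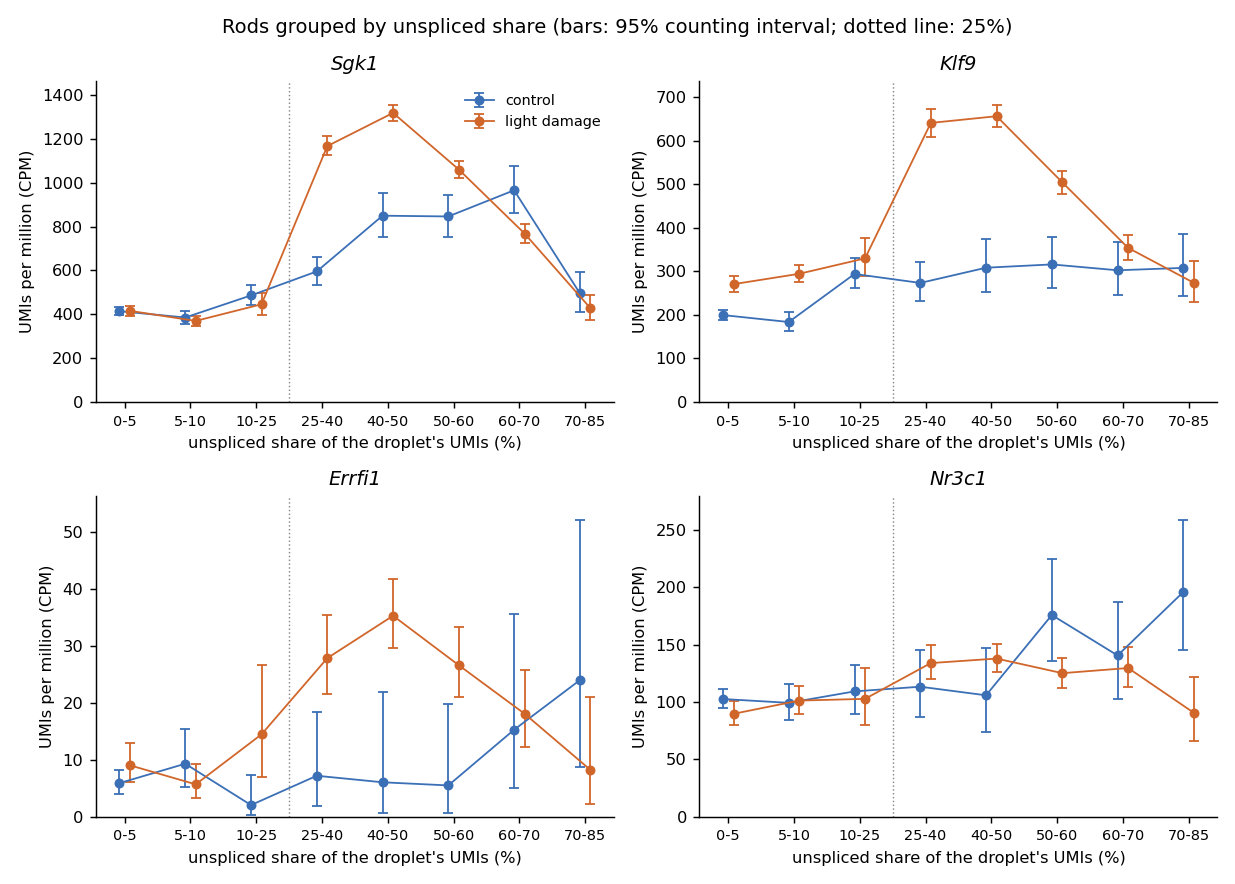
Rods were grouped by the share of unspliced UMIs per droplet (x axis, in percent). Points give the CPM of the gene in each group (y axis) with 95% counting intervals, blue for control and orange for light damage. After light damage Sgk1 and Klf9 are highest at 40 to 50% (1319 and 656 CPM), whereas control Sgk1 is highest at 60 to 70% (966 CPM) and control Klf9 stays nearly level. Light damage exceeds control for Errfi1 in the ranges from 25 to 60%.

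These ranges did not hold equivalent droplets. At 25 to 40% the median UMIs per droplet were 2072 in control and 8418 after light damage and the summed rod markers 101333 and 61464 CPM. At 60 to 70% they were closer, at 5159.5 and 5672.5 UMIs and 52874 and 47355 CPM. The interval lay above 0 for 31.1% of all tested genes at 25 to 40%, for 15.6% at 40 to 50%, for 11.5% at 50 to 60% and for 8.49% at 60 to 70%. The part of depth and of rod RNA content in the excess between 25 and 60% was not tested. Among nucleus-rich rods of 2000 to 5000 UMIs in both libraries the ratios were 0.69 (0.51 to 0.88) for Sgk1 and 0.87 (0.62 to 1.14) for Klf9. Without the cluster of 232 light damage rods with raised Egr1, an immediate early gene, they were 0.57 and 0.90.

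Errfi1 (ENSMUSG00000028967, chr4:150853919-150868892, plus strand) was called higher in nucleus-rich rods, at 10.4 CPM (6.26 to 16.2) in control and 27.8 CPM (24.8 to 31.0) after light damage. This is 2.67-fold higher, a ratio of 1.42 (0.75 to 2.17) from 19 and 313 UMIs. The difference lay in the middle of the unspliced range as well, with ratios of 1.95 (0.53 to 3.87), 2.55 (0.67 to 5.61) and 2.28 (0.37 to 5.35) in the ranges from 25 to 60%, where control held only 4, 2 and 2 UMIs. At 60 to 70% the ratio was 0.24 (-1.14 to 1.97). In cytoplasm-rich rods Errfi1 was at 6.11 and 8.20 CPM, in cone-like droplets at 15.6 and 20.7, in RPE-like at 20.7 and 24.4 and in Mueller-like at 28.7 and 42.0 (3 and 15 UMIs). The counting intervals of these ratios included 0. In Mueller-like droplets the call depended on the processing: Errfi1 was called lower where classes were taken from clusters (-1.97, -2.96 to -1.03) and higher with unspliced UMIs added (1.23, 0.00 to 2.75). Within nucleus-rich rods of 2000 to 5000 UMIs the ratio was 0.94 (-0.22 to 2.34), no longer called.

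Tsc22d3 (ENSMUSG00000031431, chrX:140539528-140600659, minus strand) was also called higher in nucleus-rich rods, at 7.11 CPM (3.79 to 12.2) and 16.3 CPM (14.1 to 18.9), 2.30-fold, with a ratio of 1.20 (0.39 to 2.14). This rests on 13 UMIs in control against 184. The ratio was 0.77 with a minimum of 1000 UMIs per droplet, 0.76 with doublets kept and -0.12 (-1.84 to 1.97) in droplets of 2000 to 5000 UMIs. Cytoplasm-rich rods had 13.3 and 12.6 CPM, cone-like droplets 12.1 and 14.3 CPM. RPE-like droplets had 13.3 and 5.57 CPM, a ratio of -1.26 (-2.60 to 0.15) from 9 and 13 UMIs, and Mueller-like droplets held 1 UMI in each library.

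Counting intervals of the other levels overlapped between most classes for both genes. In control, Errfi1 was lowest in cytoplasm-rich rods (6.11 CPM, 4.53 to 8.05) and overlapped with nucleus-rich rods and cone-like droplets next above, and Tsc22d3 overlapped between neighbours throughout the order.

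Unspliced UMIs, again scaled to the spliced plus ambiguous UMIs, were numerous enough for a ratio in 5 genes of nucleus-rich rods. Unspliced Errfi1 counted 11 UMIs in control and 347 after light damage, a ratio of 2.36 (1.5 to 3.37), and its unspliced share of UMIs was 36.7% and 52.6%. Unspliced Sgk1 counted 102 and 677 UMIs with a ratio of 0.11 (-0.20 to 0.42), and unspliced Klf9 84 and 620 UMIs with a ratio of 0.26 (-0.07 to 0.61). Scaled to the unspliced UMIs of the class, the ratios were 2.54 (1.68 to 3.55) for Errfi1, 0.29 (-0.01 to 0.60) for Sgk1 and 0.44 (0.11 to 0.79) for Klf9, whose interval then lay above 0. The spliced plus ambiguous UMIs of Sgk1 and Klf9 were higher after light damage. Their unspliced shares were 6.98% and 5.18% for Sgk1 and 13.4% and 9.05% for Klf9.

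**Figure D4:**
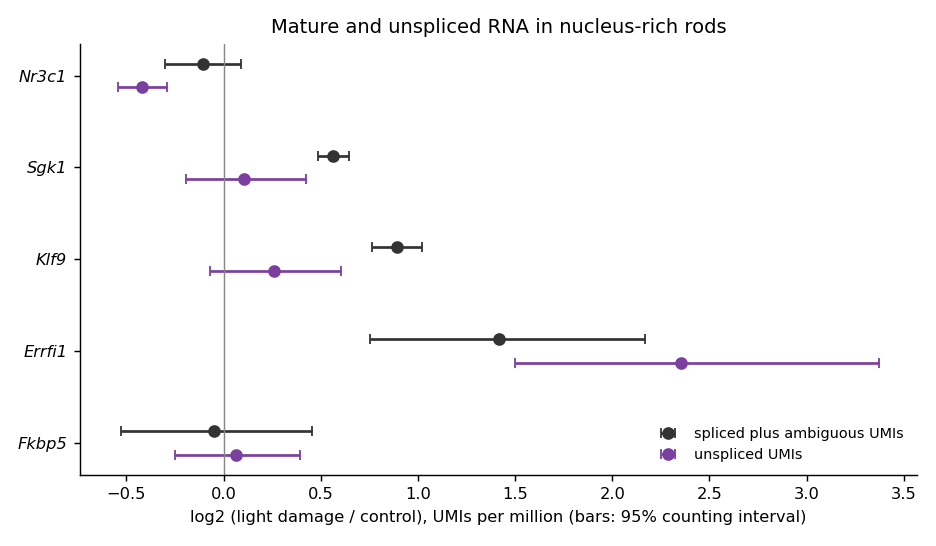
In nucleus-rich rods, the log2 ratio of light damage over control (x axis) is shown for spliced plus ambiguous UMIs (dark) and for unspliced UMIs (purple), both scaled to the spliced plus ambiguous UMIs of the class, with 95% counting intervals. For Errfi1 both intervals lie above 0, for Sgk1 and Klf9 only that of spliced plus ambiguous UMIs does, and for Nr3c1 only the unspliced interval lies below 0. Scaled to unspliced UMIs, the unspliced Klf9 ratio of 0.44 (0.11 to 0.79) also lies above 0.

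Fkbp5 (ENSMUSG00000024222, chr17:28399094-28517527, minus strand), the feedback gene of the receptor complex, differed little in rods and cone-like droplets taken as whole classes. Its level was 12.5 and 16.7 CPM in cytoplasm-rich rods, a ratio of 0.42 (0.02 to 0.82) that was 0.27 relative to the median gene. It was 23.0 and 22.2 CPM in nucleus-rich rods (-0.05, -0.53 to 0.46) and 19.1 and 18.3 CPM in cone-like droplets (-0.06, -1.15 to 1.13). Within rods the ratio was 0.63 (0.07 to 1.18) at 0 to 5% unspliced UMIs and -0.89 (-1.72 to -0.02) at 60 to 85%. Unspliced Fkbp5 made up 69.3% and 71.0% of its UMIs in nucleus-rich rods, with a ratio of 0.06 (-0.25 to 0.39). RPE-like droplets held no Fkbp5 UMI in control and 14 after light damage (5.99 CPM), at least 1.35-fold above the limit of 3 UMIs that a count of 0 allows, although the counting interval of the ratio (from -0.06 upwards) reached 0. Mueller-like droplets held none and 9, which is not above that limit.

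The remaining genes were nearly absent from photoreceptors. Pdk4 (ENSMUSG00000019577, chr6:5483351-5496309, minus strand) was found in RPE-like droplets, at 5.92 CPM (4 UMIs) in control and 14.6 CPM (34 UMIs) after light damage, a ratio of 1.30 (-0.19 to 3.26) that was not called. Without the droplet that held most Pdk4 UMIs in each library it was 2.21 (0.24 to 5.32) and was called. That droplet held 2 of the 4 control UMIs but only 2 of the 34 after light damage. This step thus raised the ratio by its making, and the call rests on very few control UMIs. Outside RPE-like droplets it had 2 UMIs in light damage nucleus-rich rods and none in the other classes. The limit that a count of 0 allows was lowest in cytoplasm-rich rods, at 0.367 CPM in control and 0.439 CPM after light damage. Zbtb16 (ENSMUSG00000066687, chr9:48654297-48836222, minus strand) had no spliced or ambiguous UMI in rods, cone-like or Mueller-like droplets and 2 in light damage RPE-like droplets. Its unspliced UMIs numbered 1 in control and 10 in light damage nucleus-rich rods, so at this depth, where 3 UMIs would be 1.64 CPM in control and 0.266 CPM after light damage, its transcript was not detectable in mature form there.

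Whether a gene's difference between libraries itself differed between classes was measured for 45 combinations of a member and a pair of classes. Of their counting intervals 21 excluded 0. The same share over all tested genes is not given here, so this count is not a result about the members as a set. Nucleus-rich minus cytoplasm-rich rods gave 0.63 (0.52 to 0.73) for Sgk1, 0.43 (0.27 to 0.58) for Klf9, 0.96 (0.10 to 1.82) for Errfi1 and 1.23 (0.33 to 2.12) for Tsc22d3, all higher in nucleus-rich rods. RPE-like droplets minus nucleus-rich rods gave -2.42 (-2.62 to -2.23) for Sgk1, -1.35 (-1.85 to -0.86) for Klf9, -2.43 (-3.87 to -0.99) for Tsc22d3 and -1.18 (-2.25 to -0.12) for Errfi1. These 4 genes thus stood lower in RPE-like droplets relative to control than in nucleus-rich rods. Nr3c1 differed between classes where cone-like droplets were set against rods (-0.51 and -0.50) and in no other pair of the 5 classes.

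Within each library, nucleus-rich rods exceeded cytoplasm-rich rods in Sgk1 by 0.84 (0.74 to 0.93) on the log2 scale in control and 1.46 (1.40 to 1.52) after light damage. In Klf9 they did so by 0.52 (0.38 to 0.66) and 0.95 (0.88 to 1.02). For Nr3c1 the excess was 0.45 in both libraries. Tsc22d3 was the exception, lower in nucleus-rich than in cytoplasm-rich control rods by log2 -0.90 (-1.86 to -0.07) and not different beyond counting error after light damage (0.38, -0.00 to 0.76). Summed rod markers were 120408 CPM in cytoplasm-rich and 73015 CPM in nucleus-rich control rods, and 107506 and 52802 CPM after light damage. The shift of the median gene between both kinds of rod is not given here. These excesses are therefore not shown to be particular to the members.

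A list of 22 other genes known to respond to glucocorticoids was described beside the members, although many of its genes also respond to cytokines, hypoxia or stress. Like the members and the other lists, it was chosen with earlier results of these data known. Its counts and medians beside the background therefore describe these genes and do not test them as a set. In nucleus-rich rods 9 of 15 tested genes were called higher and 1 lower, with a median ratio of 1.31 beside 0.06 over all tested genes. In RPE-like droplets 9 of 16 were called higher and 1 lower (median 1.64 beside 0.01), in Mueller-like droplets 7 of 10 and 1 (3.98 beside 0.05). In cone-like droplets 5 of 10 were called higher and none lower (1.45 beside 0.22), and in cytoplasm-rich rods 3 of 11 and none (0.33 beside 0.16). Over all tested genes 7.14% were called higher in nucleus-rich and 4.52% in cytoplasm-rich rods. The same share was 9.8% in RPE-like, 17% in Mueller-like and 13.8% in cone-like droplets. Called lower were 4.06% in nucleus-rich rods, 5.44% in RPE-like and 13.1% in Mueller-like droplets.

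Among the genes of this list were Cebpd, a transcription factor gene of the acute-phase response, and the metallothionein genes Mt1 and Mt2, which encode metal-binding proteins. Cebpd was at 3.83 CPM in control and 108 CPM after light damage in nucleus-rich rods, a ratio of 4.82. It was at 3.05 and 121 CPM in cytoplasm-rich rods (5.31) and at 22.2 and 569 CPM in RPE-like droplets (4.68). Mt2 had ratios of 3.74, 5.03 and 2.22 in the same classes. In RPE-like droplets, where Sgk1 was lower, Lcn2, encoding a siderophore-binding protein, went from no UMI to 756 UMIs (324 CPM) and Angptl4, encoding an inhibitor of lipoprotein lipase, from 16.3 to 341 CPM (4.39).

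Glul, which encodes glutamine synthetase, fell by 1.35 on the log2 scale in nucleus-rich rods (171 to 67.1 CPM). In Mueller-like droplets it fell by 2.39 (9581 to 1826 CPM). The cluster that held most Mueller-like droplets also held 9 of 816 control and 11 of 3183 light damage nucleus-rich rods. The part of these droplets in the Glul difference of nucleus-rich rods was not tested. Txnip, which encodes an inhibitor of thioredoxin, had a ratio of -3.20 (-4.84 to -1.78) in RPE-like droplets, from 16 and 6 UMIs. The negative regulators Nfkbia (2.53) and Dusp1 (2.43) were called higher in nucleus-rich rods.

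Clock genes were listed because corticosterone release and many targets follow the time of day. Of 12 tested in nucleus-rich rods 3 were called higher, the repressor Nr1d1 (32.3 to 149.6 CPM, ratio 2.21), Per1 (1.57), which is also a glucocorticoid target, and Cry1 (1.03). In cytoplasm-rich rods none of 10 was called (background 4.52% higher and 1.33% lower). RPE-like droplets had Cry1 (1.71) and Per1 (3.07, 0.48 to 8.42, from 1 and 29 UMIs) higher and the output gene Dbp (266 to 101 CPM, -1.40) and Cry2 (-1.45) lower of 9 tested. In cone-like droplets 1 of 10 was called, Nr1d1 (2.12), and in Mueller-like droplets Arntl was higher (1.13) and Per3 lower (-3.15) of 6 tested. Beside these counts, the background of called genes was 7.14% higher in nucleus-rich rods and 13.8% higher in cone-like droplets. It was 9.8% higher and 5.44% lower in RPE-like, and 17% and 13.1% in Mueller-like droplets. With the hour of control collection not given, time of day and light damage cannot be told apart in these libraries.

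Genes that are raised while tissue is dissociated moved with light damage as well. Called higher were 7 of 9 in nucleus-rich rods (background 7.14%) and 5 of 9 in cytoplasm-rich rods (4.52%). The counts were 6 of 7 in RPE-like (9.8%), 6 of 9 in cone-like (13.8%) and 6 of 6 in Mueller-like droplets (17%). Their summed level ranged over the 5 classes from 57.7 to 559 CPM in control and from 764 to 3505 CPM after light damage, with 559 and 3118 CPM in nucleus-rich rods. The immediate early genes Fos (ratio 5.85), Fosb (4.76), Jun (4.67) and Junb (4.14) were among them there, while the heat shock gene Hspa1b was called lower in RPE-like (-1.79) and cone-like droplets (-1.63). The part of dissociation in the differences of the members was not tested.

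Of 13 relatives of the members, none was called in nucleus-rich rods (background 7.14% higher and 4.06% lower) or cytoplasm-rich rods (4.52% and 1.33%). In RPE-like droplets Tsc22d4 was called higher (130.1 to 284 CPM, ratio 1.13) and Tsc22d1 lower (102 to 46.2 CPM, -1.14). In Mueller-like droplets Tsc22d2 was higher (9 and 308 UMIs, 3.33), as were Fkbp1a (1.67) and Fkbp4 (2.04), and Tsc22d1 was lower (-1.54). In cone-like droplets Tsc22d2 (1.31) was called higher of 10 tested, where 13.8% of all tested genes were. Of the relatives, 11 were tested in RPE-like and 8 in Mueller-like droplets. There 9.8% and 17% of all tested genes were called higher, and 5.44% and 13.1% lower. Sgk3, encoding a kinase of the SGK family, was at 219 CPM in control and 123 CPM in light damage RPE-like droplets, a ratio of -0.83 that did not reach 2-fold.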

How the data were processed

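Libraries were generated with the 10x Genomics 3′ chemistry. The deposited values are counts of UMIs per gene and barcode, made by the authors with Salmon 1.10.1 and alevin-fry 0.8.1 on mm10 as separate spliced, ambiguous and unspliced layers; Cell Ranger 7.0.1 is also named in the submitters' processing notes. Unless stated otherwise, spliced plus ambiguous UMIs were used.

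Barcodes were kept above the inflection of the barcode rank curve (1464 UMIs in control, 1614 in light damage) and below 10% mitochondrial UMIs. Doublets were scored with Scrublet in scanpy 1.11.5, and because its automatic threshold called 1 and 0 droplets, the highest scores were removed at a rate of 0.8% per 1000 droplets (114 and 276). Droplets were named by their share of marker UMIs, with limits set after the distributions were seen (1% for rod and RPE, 0.3% for cone and 0.1% for Mueller markers). These limits replaced a comparison with free RNA that had been laid down earlier, since free RNA after light damage was rich in RPE markers (12562 CPM against 3212 in control). The 5 classes compared matched Leiden clusters for 90.4% to 99.4% of droplets, where each cluster took the name of the class that held most of its droplets. Rods were split at 25% unspliced UMIs, also within clusters. This match is therefore in part built in.

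UMIs were summed per class and library, with 2 libraries and no replicates, so no p-values were computed. Intervals at 95% are exact Poisson for levels, exact conditional binomial for ratios and exact binomial for shares, and use scipy 1.17.1. For differences between classes 0.5 was added to each count. All intervals and floors (3 UMIs) cover counting error only and leave out the spread between mice and libraries. Calls needed at least 20 UMIs, a 2-fold difference and an interval on that side of 0. They were also run on simulated counts that held counting error only, which cannot test the spread between droplets or libraries.

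The members and lists were chosen with earlier results of these data known. The 8 members are given in every class, and at most 6 other genes per list and class were named in order of the interval end nearest 0. Nr3c2, Hsd11b2, Hspa1b, Txnip and, in Mueller-like droplets, Glul fell outside this rule and were named after their values were seen. Alternatives covered the minimum of UMIs, the mitochondrial limit, doublets, unspliced UMIs, scaling, free RNA, the split of rods, naming by clusters, the weight of droplets and low counts. Promoter windows came from RefSeq, and Zbtb16 and Nr3c1 were not searched.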

Additional observations from a re-analysis of the deposited data

Results flagged for a closer look

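Sgk1 was singled out because its difference between the libraries ran in opposite directions in different classes. The difference of the log2 ratios, RPE-like droplets minus nucleus-rich rods, was -2.42 (-2.62 to -2.23), and Mueller-like minus RPE-like droplets gave 2.87 (2.05 to 3.68). Both are differences of ratios with counting intervals and were not tested across mice.

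Microglia-like droplets, which entered none of the comparisons above, held Sgk1 at 397 CPM in control (13 UMIs in 12 droplets) and 1014 CPM after light damage (370 UMIs in 39 droplets), a ratio of 1.35 (0.56 to 2.28). After light damage 1 droplet held 91 of the 370 UMIs. Median UMIs per droplet were 2983.5 in control and 13204 after light damage. The share of all tested genes called in this class is not given here.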

How the results depend on the processing

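Ratios of single members (spliced plus ambiguous UMIs) were recomputed 358 times under the alternatives; 332 kept the sign of the reported value, and 2 called ratios turned: Errfi1 in rods with 60 to 85% unspliced UMIs (-0.27, -1.28 to 0.86) and Tsc22d3 in nucleus-rich rods of 2000 to 5000 UMIs (-0.12, -1.84 to 1.97). Sgk1 in RPE-like droplets was called lower under every alternative run, between -1.5 and -2.08. Of 132 counts of called members, 115 stayed within 1.5 times the reported one. Most of the reported counts were 0, and a 0 that stayed 0 was scored as within this limit. Members called higher in nucleus-rich rods numbered 1 in place of 2 with a minimum of 1000 UMIs, with doublets kept, with the mean over single droplets and in rods with 40 to 60% unspliced UMIs, and 0 in rods with 60 to 85% and in droplets of 2000 to 5000 UMIs. In RPE-like droplets 1 in place of 0 was called higher (Pdk4) with a minimum of 1000 UMIs, with the mean over single droplets and without the droplet with most UMIs, and 3 in place of 1 were called lower with the mean over single droplets. In cone-like droplets 1 in place of 0 was called lower (Sgk1, -1.43) at 2000 to 5000 UMIs. In Mueller-like droplets 0 in place of 1 was called higher with a minimum of 1000 UMIs, with classes from clusters and without vessel UMIs, 2 with unspliced UMIs added (Errfi1 the further one) and with the mean over single droplets, and 1 in place of 0 was called lower (Errfi1) with classes from clusters. The causes were not tested. Selections by unspliced range, Egr1 cluster, 2000 to 5000 UMIs, top droplet, rod markers and vessel UMIs were chosen after seeing the data. Mueller-like droplets of 2000 to 5000 UMIs were too few for a value, and the mean over single droplets has no interval, so the fold alone decided there. No paired analysis was possible because each condition is 1 library. Depth limits Tsc22d3, Errfi1, Fkbp5 and Pdk4, which rest on few control UMIs.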

Other observations

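Klf9 in microglia-like droplets was at 214 CPM in control (7 UMIs) and 49.3 CPM after light damage (18 UMIs), a ratio of -2.12 (-3.44 to -0.61), while Nr3c1 had no UMI in control and 37 (101 CPM) after light damage, at least 1.11-fold above the limit of 3 UMIs that a count of 0 allows, with a counting interval of the ratio from -0.22 upwards.

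Likeness of pattern was measured over 10 groups, the 5 classes in each of the 2 libraries, as Pearson's r of log2(CPM + 10) over 7611 genes; the groups share libraries and depth, and r is a description only. The genes most like Klf9 were Chsy1 and Pik3ca (0.98 each), those most like Nr3c1 were Ext1 and Pabpn1 (0.98 each), and those most like Sgk1 were Bud13 and Ubald2 (0.93 each). Errfi1 was nearest to Ctdsp2 (0.96) and Fbxo33 (0.93), Fkbp5 to Fbrs (0.98) and Zfp800 (0.97), and Tsc22d3 to Fn3k (0.91) and Ccpg1 (0.86). Zbtb16 and Pdk4 had too few UMIs over these groups (2 and 40) for such a comparison.

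In cytoplasm-rich rods unspliced Sgk1 counted 40 UMIs in control and 12 after light damage, a ratio of -1.48 (-2.54 to -0.52) when scaled to spliced plus ambiguous UMIs and of -1.52 (-2.58 to -0.56) when scaled to unspliced UMIs, beside -0.06 for its spliced plus ambiguous UMIs.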
